A study of Mus musculus with 9 samples.

Results

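Embryonic mouse hearts that had lost *Ctcf* from the early heart field were compared with hearts that kept it, over all genes measured by RNA sequencing. The comparison used 6 of the 9 libraries of the series, 3 from homozygotes (*Ctcf* fl/fl; *Nkx2.5-Cre*) and 3 from controls without Cre, and took in all 14011 genes of the deposited table. All hearts were collected at E10.5 on a mixed strain background, and RNA of 6 hearts was pooled for each library, so a replicate is a pool (n = 3 for each genotype). The labels give the controls as *Ctcf* fl/fl without Cre and the paper gives them as *Ctcf* fl/+ without Cre. In the table the controls stand under columns headed Het and the heterozygotes under columns headed DH, an assignment that rests on the growth protocol, which lists double heterozygous hearts, and on the study's own table of group averages. The 3 heterozygote libraries (*Ctcf* fl/+; *Nkx2.5-Cre*) entered the same fit and are given where they help place a value. *Nkx2.5-Cre* recombines floxed alleles in cardiac progenitors and their descendants, and the study's staining found CTCF kept in endocardial cells, so the homozygote heart is a mixture of cells with and without the protein. Controls lacked the driver, so an effect of the driver and an effect of the deletion cannot be told apart in homozygotes against controls. In whole hearts, fewer cells of a type and less RNA per cell cannot be told apart either.

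CTCF is a zinc finger protein that binds a long DNA motif and stops cohesin as it extrudes chromatin loops. It thereby marks many borders of topological domains and shapes which enhancers reach which promoters. At E10.5 the mouse heart is a looped tube in which atria and ventricles expand as chambers, trabeculae form on the inner ventricular wall, cushions swell in the canal and outflow tract, and the epicardium begins to cover the myocardium. Embryonic red cells made in the yolk sac circulate through it.

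*Ctcf* itself (chr8:108160468-108206822, NCBIM37) checked the labels. Its normalized value, on a scale close to CPM, was 120.5, 122 and 122 in controls and 79.6, 79.97 and 84.7 in homozygotes, and heterozygotes lay between at 101, 94.2 and 97. The groups did not overlap (log2 fold change -0.57 ± 0.06, limma adjusted p = 2.91e-05). Here and throughout, values are given in the order of libraries 1, 2 and 3 of a group, numbered as in the table's column names, and fold changes are homozygote over control on the log2(value + 0.5) scale with their standard error, which understates the change of low genes. Total reads ranged from 6698891 to 9654014 in controls and from 4437234 to 11629365 in homozygotes, so that 1 read was worth 0.0901 to 0.227 units. The deposited value adds 0.5 read, so that a gene without a read had a value of 0.045 to 0.115 over all 9 libraries. The 10 most abundant genes took 8.37 to 9.33% of the signal in controls and 10.4 to 12.3% in homozygotes. On the first principal component, which held 36.2% of the variance, homozygotes (18.5 to 24.2) stood apart from controls (-14.4 to -8.53) and heterozygotes (-10.7 to -9.16). On the second, which held 20.3%, controls (9.4 to 15.9) stood apart from heterozygotes (-14.5 to -12.1), with homozygotes between them (-1.4 to 1.68). Cardiomyocyte markers were abundant, as the label of heart requires. *Myl7*, an atrial light chain that all embryonic cardiomyocytes carry, had values of 1578, 1752 and 1686 in controls and 1784, 1699 and 1691 in homozygotes, and *Tnnt2*, cardiac troponin T, had values of 1413, 1639 and 1655 in controls and 1715, 1842 and 1594 in homozygotes.

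Homozygotes differed from controls in 2133 genes, or 15.2% of those tested (limma, Benjamini-Hochberg adjusted p under 0.05). Of these, 1008 rose (7.19%) and 1125 fell (8.03%), and 4145 genes passed an unadjusted p under 0.05. Most changes were small. The median absolute log2 fold change was 0.39 among the genes that rose and 0.43 among those that fell. Among the genes that rose, 263 did so by more than 1.5-fold, 102 by more than 2-fold and 16 by more than 4-fold. Among those that fell, 321, 90 and 8 passed the same steps. The 6 libraries fell into groups that did not overlap for 33.2% of all genes, for 1003 of the genes that rose and for 1098 of those that fell. Against heterozygotes, which also carry the driver, homozygotes differed in 13.6% of genes, and heterozygotes differed from controls in 20 genes, or 0.143%. These comparisons share libraries, so their numbers are given side by side only. The number of calls depended on control library 3 and homozygote library 3. Without the former 1049 genes were called (522 rose and 527 fell), and without the latter 1267 (589 and 678). Of the genes called with all libraries, 504 that rose and 522 that fell were also called without control library 3, and 569 and 647 without homozygote library 3.

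**Figure D1:**
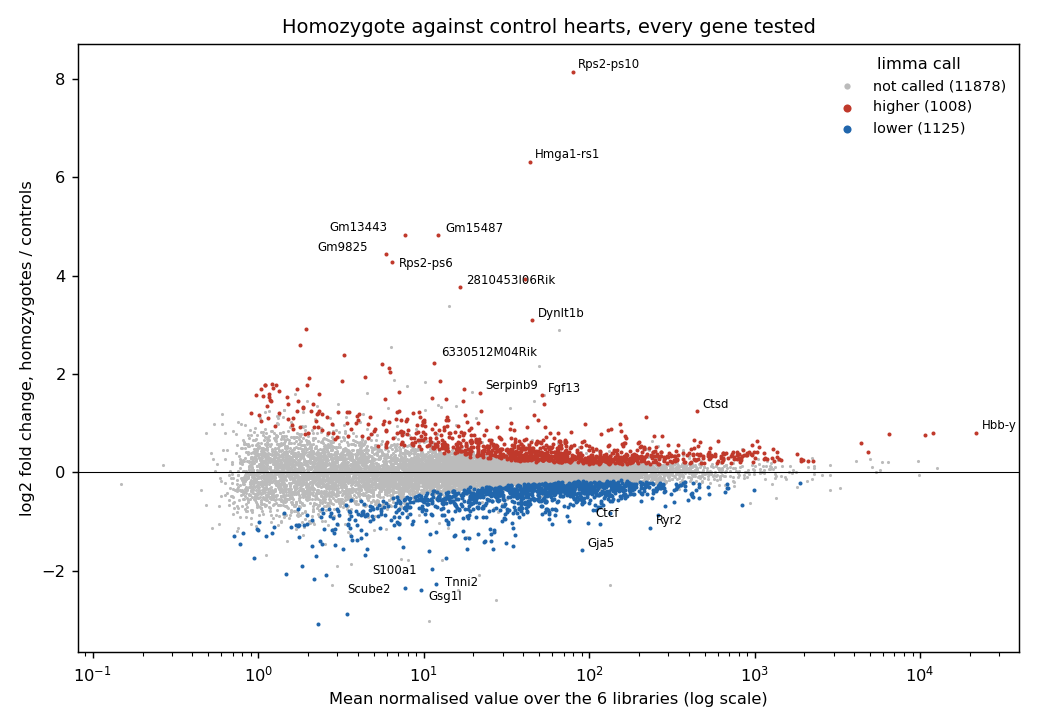
Log2 fold change of homozygotes over controls (vertical axis) against the mean normalized value over the 6 libraries (horizontal axis, log scale), with a point for each of 14011 genes. Red points are the 1008 genes called higher and blue points the 1125 called lower by limma at an adjusted p under 0.05, and most of them lie within 1 log2 unit of 0.

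Genes that rose were shorter than genes that fell. The median exonic length was 2397 bases among the genes that rose, 6005 bases among those that fell and 3669 bases over all genes. Genes were placed in 10 classes of equal size by exonic length. In the shortest class (82 to 1377 bases) the median log2 fold change was 0.17, with 256 rises and 24 falls, and in the longest (8165 to 116828 bases) it was -0.16, with 29 rises and 356 falls. The medians fell through every class between them. The difference between the medians of the shortest and the longest class was 0.01, 0.10 and -0.10 in the control libraries, 0.12, 0.07 and 0.03 in the heterozygote libraries and 0.34, 0.27 and 0.42 in the homozygote libraries, each taken against the mean of the controls. All 3 homozygote libraries lay above all control and heterozygote libraries in this difference. Its part in the single changes was not tested. With the trend removed in each library, 770 genes rose and 743 fell, and of the genes called in the original fit 635 that rose and 662 that fell were called again. For each gene list the share of members called follows its counts, to be read against the 15.2% of all genes. Beside a gene list whose counts moved by more than 1.5-fold, brackets give the numbers that rose and fell without control library 3, then without homozygote library 3, then with the length trend removed.

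**Figure D2:**
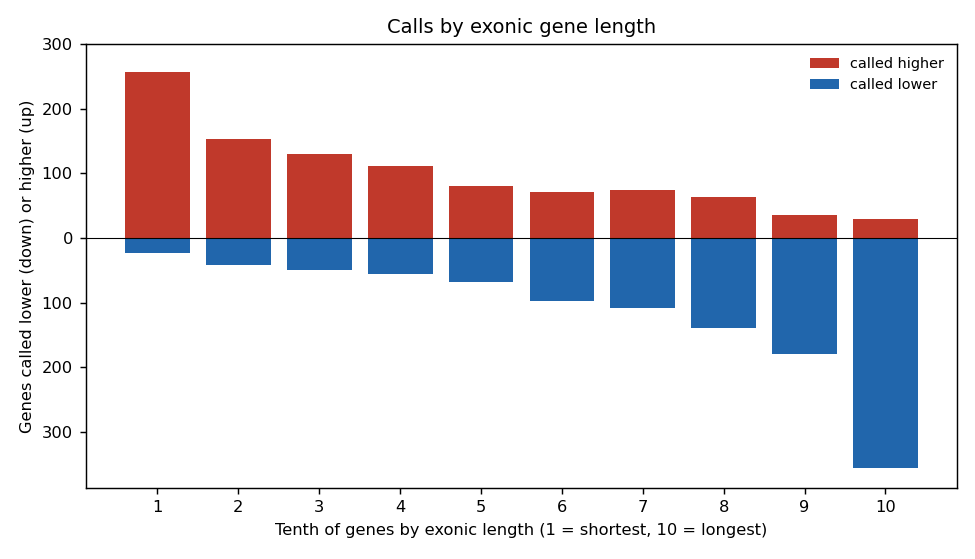
Number of genes called higher (bars above 0) and lower (bars below 0) in homozygotes by limma (vertical axis) in each of 10 classes of equal size by exonic length (horizontal axis, 1 shortest to 10 longest). Rises go from 256 in the shortest class to 29 in the longest, and falls from 24 to 356.

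Because CTCF binds a known motif, letters from its core, CCA, any 2 bases, AG, any 2 bases and GGC, were searched on both strands in the 250 bases before and 50 bases after each start site, with RefSeq promoter sequences of the later build GRCm38.p6. They stood in 651 of 27025 promoters (2.41%). Among tested genes they stood in 36 of 859 promoters of genes that fell (4.19%), in 19 of 777 of genes that rose (2.45%) and in 254 of 9072 of genes that were not called (2.8%), and the median GC content of these promoters was 64.7, 59.3 and 61%. A match describes letters and not binding, and its absence says nothing about CTCF. The stretches shown, each of 120 bases with the matched letters in capitals, are those around the match at 4 genes that fell and 2 that rose by a large amount, and they were chosen after the values were seen. *Fam116b* (chr15:89196589-89196708, minus strand, start of the match 180 bases before the start site) had values of 8.55, 11.4 and 11.04 in controls and 3.52, 3.98 and 3.83 in homozygotes (log2 fold change -1.33 ± 0.16, limma adjusted p = 0.00014). *Serpinb6b* (chr13:32965133-32965252, plus strand) encodes an intracellular protease inhibitor and had values of 18.1, 17.1 and 14.98 in controls and 4.43, 8.55 and 8.51 in homozygotes (log2 fold change -1.22 ± 0.20, limma adjusted p = 0.0015). In both, every homozygote library lay below every control. *Hs1bp3* (chr12:8313295-8313414, plus strand) had values of 22.8, 23.1 and 21.1 in controls and 13.97, 11.6 and 13.7 in homozygotes (log2 fold change -0.75 ± 0.11, limma adjusted p = 0.000586). *Mtus2* (chr5:147957174-147957293, plus strand), a microtubule-associated protein, had values of 76.5, 82.2 and 74.3 in controls and 51.2, 57.8 and 47.05 in homozygotes (log2 fold change -0.58 ± 0.08, limma adjusted p = 0.000514). These again did not overlap between the groups. *S100a6* (chr3:90612738-90612857, plus strand), a small calcium-binding protein, had values of 8.44, 7.88 and 8.99 in controls and 11.7, 12.3 and 30.3 in homozygotes (log2 fold change 0.92 ± 0.27, limma adjusted p = 0.034), with homozygote library 3 well above the others. *Radil* (chr5:142551214-142551333, minus strand), an effector of the small GTPase Rap, had values of 12.9, 12.7 and 13.8 in controls and 22.8, 21.1 and 16.5 in homozygotes (log2 fold change 0.59 ± 0.12, limma adjusted p = 0.00745). The call of *S100a6* ended without any one of control libraries 1, 2 and 3 or homozygote library 3 (limma adjusted p of up to 0.0914). *S100a6* lost the call with only homozygotes and controls in the fit, with the length trend removed or without the mean-variance trend (limma adjusted p of up to 0.103).
Fam116b: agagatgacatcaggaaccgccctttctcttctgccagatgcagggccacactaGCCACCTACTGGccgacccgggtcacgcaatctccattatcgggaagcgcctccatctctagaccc
Serpinb6b: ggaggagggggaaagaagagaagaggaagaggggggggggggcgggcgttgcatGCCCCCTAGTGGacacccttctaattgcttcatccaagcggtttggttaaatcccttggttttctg
Hs1bp3: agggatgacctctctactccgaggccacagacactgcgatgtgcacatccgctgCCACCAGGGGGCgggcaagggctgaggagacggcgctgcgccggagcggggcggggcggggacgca
Mtus2: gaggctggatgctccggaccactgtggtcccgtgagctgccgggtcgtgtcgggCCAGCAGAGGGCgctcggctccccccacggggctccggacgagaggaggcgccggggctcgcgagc
S100a6: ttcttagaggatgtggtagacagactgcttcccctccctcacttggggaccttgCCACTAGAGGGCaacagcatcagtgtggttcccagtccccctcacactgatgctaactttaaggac
Radil: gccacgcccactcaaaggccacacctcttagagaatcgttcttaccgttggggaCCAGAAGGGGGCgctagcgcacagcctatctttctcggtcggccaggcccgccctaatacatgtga

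Some marker lists of cell types other than cardiomyocytes moved with the genotype. Erythroid genes rose most broadly, with 35 tested members, of which 30 rose and 0 fell, or 85.7%, and the median log2 fold change was 0.59 (13 and 1, 15 and 0, 22 and 0). The embryonic globin *Hbb-y* had values of 19460, 15040 and 13410 in controls and 23840, 27220 and 31810 in homozygotes (log2 fold change 0.80 ± 0.19, limma adjusted p = 0.0148). All homozygote libraries lay above all controls. *Blvrb*, a biliverdin reductase abundant in red cells, had values of 66.05, 53.3 and 48.9 in controls and 99.3, 91.5 and 104 in homozygotes (log2 fold change 0.82 ± 0.13, limma adjusted p = 0.00105). *Rhd*, the Rh blood group protein, had values of 55.1, 39.9 and 46.1 in controls and 74.8, 80.1 and 91.6 in homozygotes (log2 fold change 0.81 ± 0.15, limma adjusted p = 0.00392). The summed value of the list was 40560 to 58800 in controls, 32160 to 53650 in heterozygotes and 68990 to 91630 in homozygotes. Enzymes of heme synthesis and iron handling, several of them in both lists, followed, with 30 tested members, of which 18 rose and 0 fell, or 60%, and the median log2 fold change was 0.44 (10 and 0, 10 and 0, 13 and 0). *Alad*, which forms the first pyrrole of heme, had values of 150.2, 122 and 111 in controls and 209, 172 and 235 in homozygotes (log2 fold change 0.69 ± 0.14, limma adjusted p = 0.00681), while *Urod* and *Uros*, which act later in the pathway, changed by 0.56 and 0.63 (limma adjusted p = 0.00387 and 0.00274). How much of any other change came with the larger erythroid signal was not tested. Platelet genes had 13 members tested and no call, with summed values of 274 to 284.5 in controls and 265.7 to 283.1 in homozygotes. The call of *Hbb-y* ended without control library 3 or homozygote library 3 (limma adjusted p of up to 0.0668). *Hbb-y* had a log2 fold change of 0 with quantile normalization, which sets the most abundant gene of every library to the same value (limma adjusted p = 1). *Hbb-y* lost the call with the length trend removed or without the mean-variance trend (limma adjusted p of up to 0.0593). *Alad* lost the call without the mean-variance trend (limma adjusted p = 0.0531).

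Epicardial genes also rose in part. The list had 18 tested members, of which 9 rose and 0 fell, or 50%, and the median log2 fold change was 0.31. *Upk1b*, a uroplakin of the mesothelial surface, had values of 38.8, 44.3 and 43.5 in controls and 74.8, 76.1 and 70.3 in homozygotes (log2 fold change 0.80 ± 0.07, limma adjusted p = 1.91e-05). *Wt1*, a transcription factor that marks the epicardium, had values of 44.2, 50.8 and 44.4 in controls and 70.7, 63.9 and 65.97 in homozygotes (log2 fold change 0.52 ± 0.08, limma adjusted p = 0.00153). *Upk3b* had values of 158, 184 and 154 in controls and 246, 212 and 218 in homozygotes (log2 fold change 0.44 ± 0.08, limma adjusted p = 0.00241). No homozygote library overlapped the controls for these. *Tcf21*, another epicardial transcription factor, had values of 33.2, 40.8 and 42.5 in controls and 53.9, 47.3 and 44.9 in homozygotes and did not pass the test (limma adjusted p = 0.0982). The summed value of the list was 816.3 to 854.5 in controls and 1018 to 1092 in homozygotes. Genes of the cushion mesenchyme, from which the valves form, went the other way, with 23 tested members, of which 0 rose and 8 fell, or 34.8%, and the median log2 fold change was -0.37. The proteoglycan *Vcan* had values of 963, 964 and 1151 in controls and 630.3, 793 and 532 in homozygotes (log2 fold change -0.67 ± 0.12, limma adjusted p = 0.00226). Periostin, *Postn*, had values of 150.1, 152 and 129 in controls and 122, 92.2 and 86.95 in homozygotes (log2 fold change -0.53 ± 0.11, limma adjusted p = 0.00735). The collagen *Col2a1* had values of 180.2, 170.4 and 161 in controls and 109.8, 109 and 74.1 in homozygotes (log2 fold change -0.82 ± 0.13, limma adjusted p = 0.00114). Homozygotes lay below controls in each. *Papss2*, which makes the sulfate donor for matrix proteoglycans, changed by -0.79 (limma adjusted p = 0.000515), and the transcription factors *Sox9* (-0.09, limma adjusted p = 0.639) and *Twist1* (-0.33, limma adjusted p = 0.0998) did not pass the test. The list's summed value was 2593 to 2882 in controls and 1832 to 2181 in homozygotes. *Vcan* had a log2 fold change of -0.45 with the length trend removed (limma adjusted p = 0.00876). *Postn* lost the call without the mean-variance trend (limma adjusted p = 0.0527).

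Markers of the endothelium and endocardium were called in 20% of cases, against 15.2% of all genes, with 30 tested members, of which 3 rose and 3 fell, or 20%, and the median log2 fold change was -0.14 (1 and 1, 2 and 1, 3 and 3). *Pecam1*, a junction protein, had values of 137, 128 and 148 in controls and 134, 117 and 115 in homozygotes and did not pass the test (limma adjusted p = 0.132). *Cdh5*, the endothelial cadherin, had values of 178, 181 and 198 in controls and 190.0, 159.5 and 150.2 in homozygotes and did not pass it either (limma adjusted p = 0.193). *Kdr*, the main VEGF receptor, had values of 138, 123 and 159.7 in controls and 123, 95.2 and 93.97 in homozygotes (log2 fold change -0.43 ± 0.10, limma adjusted p = 0.0136), and *Sox17*, an endothelial and endodermal transcription factor, rose from low values of 2.85, 2.49 and 1.53 to 5.79, 5.67 and 5.27 (log2 fold change 1.15 ± 0.22, limma adjusted p = 0.00438). The list's summed value was 2156 to 2348 in controls and 1923 to 2225 in homozygotes. Among 21 macrophage and other leukocyte genes tested, 0 rose and 2 fell, or 9.52%. The macrophage receptor *Csf1r* had low values of 6.46, 5.95 and 9.14 in controls and 4.66, 7.19 and 11.7 in homozygotes and did not pass the test (limma adjusted p = 0.92). The calls were the lysozymes *Lyz1* and *Lyz2*, so alike (95.8% identity) that their reads may have been split between them. *Lyz1* had values of 3.32, 2.29 and 2.41 in controls and 0.341, 0.423 and 0.045 in homozygotes (log2 fold change -2.06 ± 0.31, limma adjusted p = 0.000926). *Lyz2* had values of 18.8, 22.2 and 23.6 in controls and 6.25, 7.19 and 13.2 in homozygotes (log2 fold change -1.30 ± 0.21, limma adjusted p = 0.00142), again lower in every homozygote library. Liver and endoderm genes stood apart in control library 1, where *Afp* was 595, 47.6 and 49.2 across the 3 controls against 50.8, 3.64 and 55.6 in homozygotes. The liver and endoderm list had 20 tested members, of which 2 rose and 0 fell, or 10% (1 and 0, 1 and 0, 1 and 0). None of the classical liver genes was called in this list, whose calls were *Sox17* and the keratin *Krt18* (log2 fold change 0.43 ± 0.13, limma adjusted p = 0.0348). Of 5 genes tested in the list of Y-linked genes and *Xist*, 0 rose and 2 fell, or 40% (0 and 0, 0 and 0, 0 and 1). *Ddx3y* had values of 36.6, 46 and 51.5 in controls and 15.3, 38.3 and 16.8 in homozygotes (log2 fold change -1.03 ± 0.29, limma adjusted p = 0.0314), and the groups overlapped. *Kdm5d* had values of 15.1, 21.3 and 19.2 in controls and 5.56, 14.5 and 8.51 in homozygotes (log2 fold change -1.01 ± 0.30, limma adjusted p = 0.0378). *Xist* had values of 509.9, 236 and 336 in controls and 436, 324 and 360.5 in homozygotes and did not pass the test (limma adjusted p = 0.758), and together these genes measure the mix of sexes in the pools. The part of these mixtures in the other changes was not tested. The call of *Kdr* ended without control library 3 or any one of homozygote libraries 2 and 3 (limma adjusted p of up to 0.0695). The call of *Krt18* ended without any one of control libraries 2 and 3 or any one of homozygote libraries 1, 2 and 3 (limma adjusted p of up to 0.148). The calls of *Ddx3y* and *Kdm5d* ended without any one of control libraries 2 and 3 or any one of homozygote libraries 1 and 3 (limma adjusted p of up to 0.119 and 0.137). *Lyz1* had a log2 fold change of -4.04 with edgeR on whole reads (edgeR adjusted p = 0.00131). *Lyz1* had a log2 fold change of -3.91 with voom on whole reads (limma adjusted p = 0.00252). *Kdr* and *Ddx3y* lost the call without the mean-variance trend (limma adjusted p = 0.0721 and 0.118). *Krt18* and *Kdm5d* lost the call with the length trend removed or without the mean-variance trend (limma adjusted p of up to 0.13 and 0.121).

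**Figure D3:**
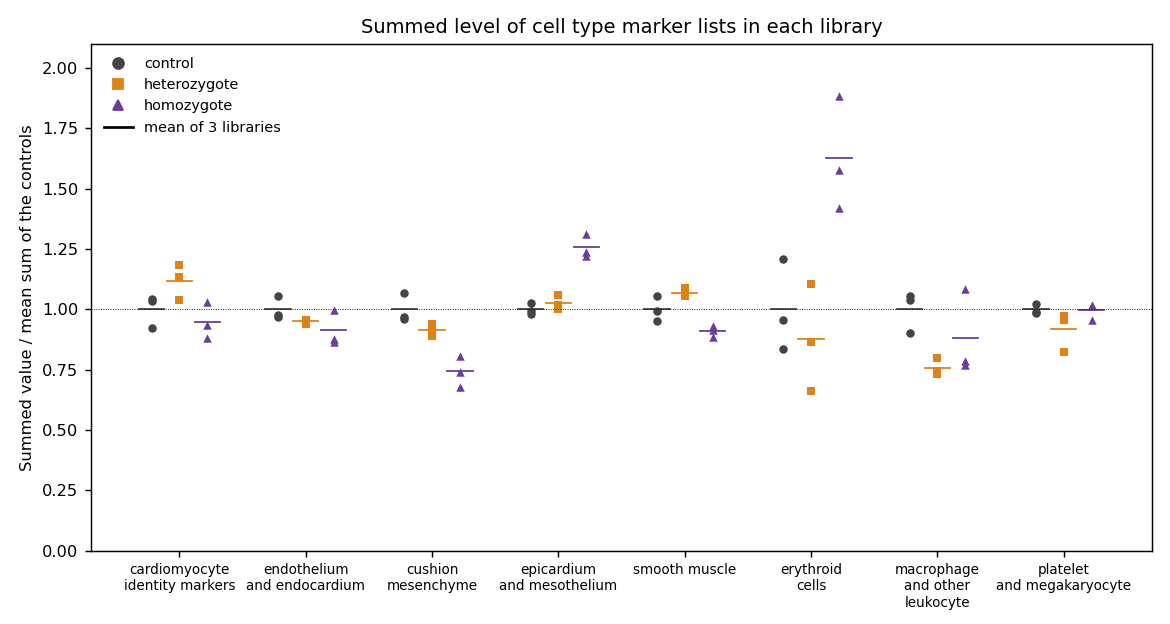
Summed normalized value of 8 marker lists (horizontal axis) divided by the mean sum of the controls (vertical axis), with a point for each library and a bar at the mean of the 3 libraries of a genotype. Homozygote points lie above all control points for erythroid and epicardial markers and below them for cushion mesenchyme and smooth muscle.

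Several transcription factors of the heart fell in homozygotes, while the summed level of general cardiomyocyte markers overlapped between the groups. The cardiomyocyte marker list had 28 tested members, of which 2 rose and 7 fell, or 32.1%, and the median log2 fold change was -0.09 (1 and 5, 1 and 5, 1 and 7), and their summed value was 27690 to 31260 in controls and 26450 to 30860 in homozygotes. Among cardiac transcription factors there were 38 tested members, of which 1 rose and 12 fell, or 34.2%, and the median log2 fold change was -0.14. *Nkx2-5*, the homeobox factor at the head of the cardiac program, had values of 69.2, 81.2 and 75.8 in controls and 38.3, 36.8 and 41.4 in homozygotes (log2 fold change -0.95 ± 0.08, limma adjusted p = 7.38e-06). Heterozygotes, which also carry the driver, had values of 53.7, 58.9 and 58.5. *Irx4*, a ventricular homeobox factor, had values of 41.4, 47.02 and 45.4 in controls and 26.7, 25.8 and 22.02 in homozygotes (log2 fold change -0.83 ± 0.09, limma adjusted p = 5.4e-05). *Hey2*, a transcriptional repressor of the compact ventricular wall, had values of 68.4, 75.3 and 65.9 in controls and 41.9, 42.1 and 40.7 in homozygotes (log2 fold change -0.74 ± 0.07, limma adjusted p = 2.2e-05). All homozygote libraries lay below all controls for these factors. *Hopx*, a homeodomain-only cofactor, had values of 78.4, 97.3 and 87.05 in controls and 51.2, 56.1 and 54.7 in homozygotes (log2 fold change -0.69 ± 0.09, limma adjusted p = 0.000218). *Myocd*, the coactivator of serum response factor in muscle, had values of 55.5, 60.2 and 62.6 in controls and 44.2, 42.1 and 33.5 in homozygotes (log2 fold change -0.58 ± 0.11, limma adjusted p = 0.00382). These did not overlap between groups either. *Hand1* and *Mef2c* changed less, by -0.45 and -0.42 (limma adjusted p = 0.00472 and 0.00148).

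Genes of the trabecular and chamber myocardium had the largest share of falls among the heart lists, with 25 tested members, of which 1 rose and 13 fell, or 56%, and the median log2 fold change was -0.40. *Gja5*, connexin 40 of the atria and trabeculae, had values of 124, 116 and 167 in controls and 55.8, 46.6 and 33.1 in homozygotes (log2 fold change -1.59 ± 0.17, limma adjusted p = 5.41e-05). *Gja1*, connexin 43 of the working myocardium, had values of 147, 162 and 160.4 in controls and 81.2, 79.3 and 66.9 in homozygotes (log2 fold change -1.05 ± 0.08, limma adjusted p = 2.95e-06). The secreted guidance cue *Slit2* had values of 74.4, 78.5 and 89.2 in controls and 41.9, 42.4 and 32.5 in homozygotes (log2 fold change -1.05 ± 0.11, limma adjusted p = 4.04e-05). Each was lower in every homozygote library than in any control, and *Gja5* in heterozygotes (122, 158 and 145) overlapped only the controls. *Pcsk6*, a proprotein convertase, changed by -0.90 and the coactivator *Cited1* by -0.77 (limma adjusted p = 0.00189 and 1.91e-05). The single rise was *Dkk3*, a secreted protein of the Dickkopf family, with values of 83.98, 92.3 and 96.8 in controls and 189, 184 and 128 in homozygotes (log2 fold change 0.86 ± 0.12, limma adjusted p = 0.000546). *Nppa*, the atrial natriuretic peptide of the chambers, had values of 691, 731 and 828 in controls and 677, 618 and 439.5 in homozygotes (log2 fold change -0.40 ± 0.12, limma adjusted p = 0.0462), and 61.5% of its exonic bases overlap a gene on the other strand, whose reads cannot be told apart. The call of *Nppa* ended without any one of control libraries 2 and 3 or any one of homozygote libraries 2 and 3 (limma adjusted p of up to 0.175). *Nppa* lost the call with only homozygotes and controls in the fit, without the mean-variance trend or with edgeR on whole reads (limma or edgeR adjusted p of up to 0.144).

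**Figure D4:**
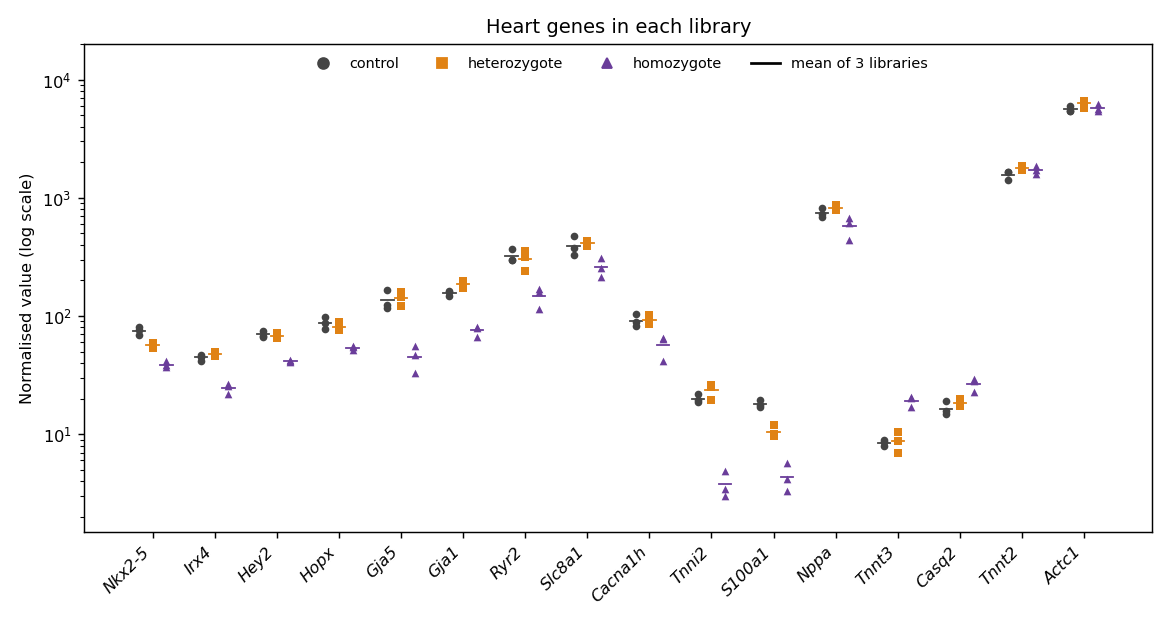
Normalized value on a log axis (vertical axis) of 16 heart genes (horizontal axis), with a point for each of the 3 libraries per genotype and a bar at their mean. Homozygote points lie below every control point for genes such as *Nkx2-5*, *Gja5* and *S100a1*, and above them for *Tnnt3* and *Casq2*. For *Tnnt2* and *Actc1* the homozygote and control points overlap.

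Called ion channels of cardiac conduction all fell, with 27 tested members, of which 0 rose and 9 fell, or 33.3%, and the median log2 fold change was -0.27 (0 and 5, 0 and 6, 0 and 6). These falls include *Gja5* and *Gja1*, also counted in the trabecular list, and *Cacna1h*, also counted in the calcium handling list. *Kcnd2*, a potassium channel of the transient outward current, had values of 4.02, 3.91 and 4.61 in controls and 2.16, 0.762 and 1.85 in homozygotes (log2 fold change -1.23 ± 0.28, limma adjusted p = 0.00999). In heterozygotes *Kcnd2* had values of 2.4, 3.22 and 2.65, below every control. Homozygotes against heterozygotes did not pass the test for it (limma adjusted p = 0.112). *Cacna1h*, a T-type calcium channel, had values of 82.1, 88.6 and 104 in controls and 64.8, 64.4 and 41.9 in homozygotes (log2 fold change -0.70 ± 0.14, limma adjusted p = 0.00568). Homozygotes lay below controls in both. Calcium handling and excitation-contraction coupling had 40 tested members, of which 2 rose and 12 fell, or 35%, and the median log2 fold change was -0.27 (1 and 9, 2 and 10, 2 and 8). *S100a1*, a calcium sensor that binds the ryanodine receptor, had values of 19.6, 17.03 and 17.8 in controls and 3.29, 4.15 and 5.72 in homozygotes (log2 fold change -1.96 ± 0.17, limma adjusted p = 1.52e-05), the largest fall of the list. Heterozygotes lay between these groups for *S100a1*, at 11.9, 9.65 and 10.03. The ryanodine receptor *Ryr2* had values of 298, 296 and 369.9 in controls and 159.8, 169.7 and 115 in homozygotes (log2 fold change -1.13 ± 0.15, limma adjusted p = 0.000391). The sodium-calcium exchanger *Slc8a1* had values of 374, 330.0 and 476 in controls and 255, 312 and 213 in homozygotes (log2 fold change -0.60 ± 0.13, limma adjusted p = 0.00924). All of these lay below the controls. By contrast *Casq2*, which stores calcium in the sarcoplasmic reticulum, rose in all homozygote libraries, with values of 14.7, 15.6 and 18.9 in controls and 29.4, 28.01 and 22.6 in homozygotes (log2 fold change 0.68 ± 0.13, limma adjusted p = 0.00327). *Pln*, the inhibitor of the calcium pump, changed by -0.44 (limma adjusted p = 0.00999). *Slc8a1* and *Pln* lost the call without the mean-variance trend (limma adjusted p = 0.0614 and 0.0618).

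Calls among receptors for neural and hormonal signals to the heart were mostly falls, with 30 tested members, of which 1 rose and 8 fell, or 30%, and the median log2 fold change was -0.16 (1 and 6, 1 and 7, 2 and 8). *Adra1b*, an alpha-adrenergic receptor, had values of 6.23, 7.37 and 7.24 in controls and 2.61, 1.61 and 1.4 in homozygotes (log2 fold change -1.68 ± 0.21, limma adjusted p = 0.000199). *Chrm2*, the muscarinic receptor that slows the heart, had values of 5.06, 5.54 and 8.99 in controls and 2.84, 1.95 and 2.39 in homozygotes (log2 fold change -1.25 ± 0.24, limma adjusted p = 0.00412). The groups were apart for both. *Edn1*, the peptide endothelin 1, was the only rise, with values of 10.7, 13.3 and 9.57 in controls and 21.5, 20.6 and 17.7 in homozygotes (log2 fold change 0.81 ± 0.15, limma adjusted p = 0.00392). Its receptor *Ednra* had values of 47.9, 44.99 and 53.7 in controls and 35.99, 36.6 and 24.8 in homozygotes (log2 fold change -0.60 ± 0.14, limma adjusted p = 0.0105), so that ligand and receptor changed in opposite directions. Among downstream enzymes, the cyclic AMP phosphodiesterase *Pde4d* changed by -0.61 and the adenylyl cyclase *Adcy6* by -0.48 (limma adjusted p = 0.0018 and 0.00563). The call of *Ednra* ended without control library 3 (limma adjusted p = 0.0536). *Ednra* lost the call without the mean-variance trend (limma adjusted p = 0.0584).

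Sarcomere genes moved in both directions, with 51 tested members, of which 8 rose and 8 fell, or 31.4%, and the median log2 fold change was -0.04 (5 and 7, 5 and 6, 6 and 9). Among main embryonic components, *Actc1* (0.04, limma adjusted p = 0.826), *Myh6* (-0.36, 0.134), *Myh7* (-0.32, 0.168) and *Ttn* (-0.63, 0.112) did not pass the test. The light chain *Myl4* rose by 0.23, but its call ended in several alternatives (limma adjusted p of up to 0.136). *Tnni2*, fast skeletal troponin I, had values of 18.6, 21.8 and 19.7 in controls and 4.88, 3.47 and 3.02 in homozygotes (log2 fold change -2.28 ± 0.17, limma adjusted p = 2.95e-06). *Tnnt3*, fast skeletal troponin T, which lies on the same stretch of chromosome 7, had values of 8.67, 7.88 and 8.99 in controls and 20.1, 20.6 and 16.9 in homozygotes (log2 fold change 1.12 ± 0.15, limma adjusted p = 0.000452). The first was lower and the second higher in every homozygote library. A second pair of troponin genes lies elsewhere on chromosome 7. *Tnnt1*, slow skeletal troponin T, had values of 57.6, 73.5 and 59.3 in controls and 45.98, 40.5 and 43.99 in homozygotes (log2 fold change -0.53 ± 0.10, limma adjusted p = 0.00269). Beside it *Tnni3*, cardiac troponin I, had values of 271, 306 and 295 in controls and 386, 360.2 and 350.4 in homozygotes (log2 fold change 0.33 ± 0.06, limma adjusted p = 0.00313), again in the opposite direction. *Mylpf*, the fast skeletal regulatory light chain, had values of 14.96, 17.4 and 17.6 in controls and 34.6, 28.7 and 29.3 in homozygotes (log2 fold change 0.87 ± 0.11, limma adjusted p = 0.000207). *Myoz1*, a Z-disc protein, and *Lmod3*, which builds thin filaments, rose by 0.60 and 0.54, and the related *Lmod2* changed by -0.57 (limma adjusted p = 0.00848, 0.00651 and 0.00237). Antisense or overlapping transcripts could add to such values, since the library kit keeps no strand.

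The stretch of chromosome 7 around *Tnni2* held more calls, and its genes were taken after their values were seen. From chr7:149511742 onward, *6330512M04Rik*, a transcript of unknown function that overlaps *Ctsd*, had values of 4.02, 3.61 and 3.73 in controls and 21.2, 19.7 and 17.2 in homozygotes (log2 fold change 2.21 ± 0.16, limma adjusted p = 2.24e-06). *Ctsd*, the lysosomal protease cathepsin D, had values of 258, 262 and 274 in controls and 659.6, 669.8 and 559 in homozygotes (log2 fold change 1.24 ± 0.08, limma adjusted p = 7.08e-07). *Lsp1*, an actin-binding protein of leukocytes, had values of 41.03, 44.4 and 46.6 in controls and 62.8, 56.1 and 57.2 in homozygotes (log2 fold change 0.41 ± 0.07, limma adjusted p = 0.0024). Rises thus stood on both sides of the fall of *Tnni2*. *Mrpl23* (12.98, 8.997 and 7.97 in controls and 9.88, 12.4 and 10.6 in homozygotes) did not pass the test (limma adjusted p = 0.796). Farther along lie the imprinted genes *Igf2* and *H19*, whose shared control region is a known CTCF target. The growth factor *Igf2* had values of 5142, 5528 and 5436 in controls and 5764, 5329 and 5176 in homozygotes (log2 fold change 0.01 ± 0.08, limma adjusted p = 0.937). The RNA *H19* had values of 9763, 10460 and 9805 in controls and 10090, 8725 and 9963 in homozygotes (log2 fold change -0.06 ± 0.10, limma adjusted p = 0.728). The groups overlapped for both.

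Among signalling pathways, calls were mostly falls. BMP and TGF-beta signalling, which patterns chambers and cushions, had 40 tested members, of which 2 rose and 9 fell, or 27.5%, and the median log2 fold change was -0.20 (1 and 7, 1 and 7, 2 and 8). The type I receptor *Bmpr1b* had values of 6.81, 6.05 and 5.63 in controls and 1.7, 2.79 and 2.03 in homozygotes (log2 fold change -1.33 ± 0.22, limma adjusted p = 0.00159). The type II receptor *Bmpr2* had values of 42.7, 32.3 and 48.8 in controls and 20.8, 19.7 and 22.4 in homozygotes (log2 fold change -0.94 ± 0.12, limma adjusted p = 0.000328). Heterozygotes lay between these groups for *Bmpr2*, at 29.8, 28.4 and 29.6. The ligand *Bmp2* had values of 38.8, 33.7 and 37.4 in controls and 19.2, 25.5 and 23.4 in homozygotes (log2 fold change -0.69 ± 0.11, limma adjusted p = 0.00148). Receptors and ligand were lower in every homozygote library. *Tgfbr3*, the betaglycan coreceptor, changed by -0.67 (limma adjusted p = 0.000431), and *Tgfb3* rose by 0.53 (limma adjusted p = 0.00808). The Wnt list had 57 tested members, of which 3 rose and 9 fell, or 21.1%, and the median log2 fold change was -0.14 (2 and 4, 2 and 3, 3 and 3). *Nkd2*, an inhibitor that binds Dishevelled, had values of 2.85, 4.22 and 4.02 in controls and 0.568, 0.762 and 1.04 in homozygotes (log2 fold change -1.70 ± 0.24, limma adjusted p = 0.000607). *Rspo3*, a secreted enhancer of Wnt signals, had values of 21.8, 25.2 and 21.9 in controls and 12.2, 12.3 and 10.8 in homozygotes (log2 fold change -0.94 ± 0.11, limma adjusted p = 9.37e-05). In Notch signalling there were 26 tested members, of which 0 rose and 6 fell, or 23.1%, and the median log2 fold change was -0.15 (0 and 2, 0 and 3, 0 and 3). The ligand *Dll1* had values of 8.55, 10.2 and 13.5 in controls and 7.83, 4.99 and 4.55 in homozygotes (log2 fold change -0.85 ± 0.21, limma adjusted p = 0.0164). The receptor *Notch1* had values of 73.04, 69.2 and 88.5 in controls and 62.6, 57.97 and 50.2 in homozygotes (log2 fold change -0.43 ± 0.10, limma adjusted p = 0.0109), also below all controls. The call of *Dll1* ended without control library 3 or any one of homozygote libraries 2 and 3 (limma adjusted p of up to 0.0869). The call of *Notch1* ended without control library 3 (limma adjusted p = 0.0549). *Notch1* had a log2 fold change of -0.21 with the length trend removed (limma adjusted p = 0.134). *Dll1* and *Notch1* lost the call without the mean-variance trend (limma adjusted p = 0.0513 and 0.0567).

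FGF signalling had 24 tested members, of which 1 rose and 5 fell, or 25%, and the median log2 fold change was -0.16 (1 and 3, 1 and 4, 1 and 4). *Fgf13*, an intracellular member that acts on sodium channels, rose with values of 24.7, 26.2 and 27.6 in controls and 75.96, 78.8 and 80.02 in homozygotes (log2 fold change 1.56 ± 0.08, limma adjusted p = 3.97e-08), above all controls. The falls were the membrane protein *Flrt3* (50.5, 50.1 and 52.3 in controls and 34.4, 37.5 and 30.03 in homozygotes; log2 fold change -0.58 ± 0.09, limma adjusted p = 0.00117), the target transcription factor *Etv5* (-0.44, limma adjusted p = 0.0109) and the feedback inhibitors *Spry2*, *Spred1* and *Spred2* (-0.41, -0.36 and -0.34, limma adjusted p = 0.0138, 0.0162 and 0.0231). Against heterozygotes, which also carry the driver, homozygotes did not pass the test for *Spry2*, *Spred1* and *Spred2* (limma adjusted p = 0.0869, 0.288 and 0.0661). Hedgehog genes had 15 tested members, of which 1 rose and 3 fell, or 26.7%, and the median log2 fold change was -0.26 (1 and 2, 0 and 2, 0 and 2). *Scube2*, a secreted carrier of Hedgehog ligands, had values of 12.98, 11.6 and 15.1 in controls and 2.38, 2.45 and 1.76 in homozygotes (log2 fold change -2.35 ± 0.17, limma adjusted p = 2.95e-06), and the coreceptor *Cdon* changed by -0.48 (limma adjusted p = 0.00358). Heterozygotes had 7.8, 9.9 and 8.88 for *Scube2*, outside both other groups. Retinoic acid genes had 17 members tested, of which 2 rose and 0 fell, or 11.8% (1 and 0, 1 and 0, 2 and 0). Both make retinoic acid. *Aldh1a1* had values of 24.97, 28.6 and 22.9 in controls and 40.8, 40.9 and 43.1 in homozygotes (log2 fold change 0.70 ± 0.12, limma adjusted p = 0.00193). *Aldh1a3*, at a low level, had values of 0.524, 1.47 and 0.512 in controls and 2.16, 2.29 and 2.12 in homozygotes (log2 fold change 1.08 ± 0.32, limma adjusted p = 0.0385). The call of *Spry2* ended without any one of control libraries 2 and 3 (limma adjusted p of up to 0.0587). The call of *Spred1* ended without control library 2 or homozygote library 1 (limma adjusted p of up to 0.059). The call of *Spred2* ended without any one of control libraries 1, 2 and 3 or homozygote library 3 (limma adjusted p of up to 0.0934). The call of *Aldh1a3* ended without any one of control libraries 1 and 3 or any one of homozygote libraries 1, 2 and 3 (limma adjusted p of up to 0.146). *Spred1* lost the call with the length trend removed or without the mean-variance trend (limma adjusted p of up to 0.0673). *Spred2* lost the call without the mean-variance trend (limma adjusted p = 0.0525). *Aldh1a3* lost the call with edgeR on whole reads (edgeR adjusted p = 0.0598).

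VEGF and angiopoietin genes had 20 tested members, of which 0 rose and 5 fell, or 25%, and the median log2 fold change was -0.16 (0 and 2, 0 and 2, 0 and 4). *Vash2*, vasohibin 2, had values of 94.5, 99.8 and 93.05 in controls and 54.4, 49.5 and 50.8 in homozygotes (log2 fold change -0.89 ± 0.07, limma adjusted p = 2.95e-06). *Pdgfra*, a PDGF receptor counted in this list, changed by -0.40 (limma adjusted p = 0.0106). IGF and insulin signalling had 31 tested members, of which 2 rose and 6 fell, or 25.8%, and the median log2 fold change was -0.14 (2 and 3, 2 and 3, 2 and 3). The adaptor *Irs1* had values of 46.7, 45.8 and 49.2 in controls and 25.1, 30.2 and 28.4 in homozygotes (log2 fold change -0.75 ± 0.08, limma adjusted p = 6.89e-05) in non-overlapping groups, and 30.9% of its exonic bases overlap a gene on the other strand. The binding proteins went both ways, *Igfbp2* and *Igfbp3* rising by 0.62 and 0.53 and *Igfbp5* changing by -0.36 (limma adjusted p = 0.00358, 0.00608 and 0.00631). Hippo genes had 26 tested members, of which 0 rose and 5 fell, or 19.2%, and the median log2 fold change was -0.08 (0 and 4, 0 and 3, 0 and 2). The giant cadherin *Fat4* had values of 43.2, 40.1 and 57.8 in controls and 32.1, 26.5 and 24.99 in homozygotes (log2 fold change -0.74 ± 0.14, limma adjusted p = 0.00358). The YAP regulator *Amotl1* had values of 156, 162 and 179.9 in controls and 115, 114 and 111 in homozygotes (log2 fold change -0.55 ± 0.07, limma adjusted p = 0.000168). Both fell without overlap. *Fat4* had a log2 fold change of -0.48 with the length trend removed (limma adjusted p = 0.0262). *Pdgfra* lost the call without the mean-variance trend (limma adjusted p = 0.0564).

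Families known from axon guidance, which also act in vessels and heart, had 54 tested members, of which 1 rose and 15 fell, or 29.6%, and the median log2 fold change was -0.23 (0 and 7, 1 and 10, 2 and 10). *Robo2*, a receptor of the Slit proteins, had values of 23.8, 19.4 and 24.1 in controls and 12.8, 13.96 and 17.2 in homozygotes (log2 fold change -0.60 ± 0.15, limma adjusted p = 0.0162). The ephrin receptor *Ephb3* had values of 38.9, 38.3 and 46.9 in controls and 27.8, 25.3 and 19.9 in homozygotes (log2 fold change -0.76 ± 0.12, limma adjusted p = 0.00113). Like *Slit2*, both fell without overlap. The semaphorins *Sema5b* and *Sema4d* and the ephrin receptor *Epha3* changed by -1.07, -0.62 and -0.78 (limma adjusted p = 0.0154, 0.00278 and 0.0239). Neural crest and neural genes outside these families went both ways. *Nefl*, the light neurofilament, had values of 7.74, 8.49 and 6.8 in controls and 14.2, 17.2 and 15.5 in homozygotes (log2 fold change 0.98 ± 0.15, limma adjusted p = 0.000805), and 32.8% of its exonic bases overlap a gene on the other strand. *Dlx2*, a homeobox factor, rose from values near 0 and had values of 0.64, 0.152 and 0.0731 in controls and 2.38, 1.95 and 2.03 in homozygotes (log2 fold change 1.79 ± 0.36, limma adjusted p = 0.00565). *Tubb3*, a neuronal tubulin, rose by 0.63, and *Mtap2*, a microtubule-associated protein, changed by -0.89 (limma adjusted p = 0.00989 and 0.00835). In that list 3 of 15 genes rose and 2 fell, or 33.3% (3 and 1, 3 and 2, 3 and 1). The call of *Robo2* ended without any one of control libraries 1 and 3 or homozygote library 1 (limma adjusted p of up to 0.072). The call of *Sema5b* ended without control library 1 or homozygote library 3 (limma adjusted p of up to 0.0663). The call of *Epha3* ended without any one of control libraries 2 and 3 or homozygote library 2 (limma adjusted p of up to 0.112). *Sema5b* and *Dlx2* had log2 fold changes of -1.63 and 3.01 with edgeR on whole reads (edgeR adjusted p = 0.0106 and 0.00969). *Robo2* had a log2 fold change of -0.35 with the length trend removed (limma adjusted p = 0.187). *Dlx2* had a log2 fold change of 3.44 with voom on whole reads (limma adjusted p = 0.00459). *Robo2* and *Epha3* lost the call without the mean-variance trend (limma adjusted p = 0.0556 and 0.0713). *Mtap2* lost the call with the length trend removed (limma adjusted p = 0.0517).

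Extracellular matrix genes fell more often than they rose. Laminins and other matrix proteins had 45 tested members, of which 2 rose and 13 fell, or 33.3%, and the median log2 fold change was -0.18 (1 and 6, 1 and 8, 1 and 10). *Tnc*, tenascin C, had values of 107, 106 and 89.8 in controls and 52.8, 47.5 and 50.4 in homozygotes (log2 fold change -0.99 ± 0.21, limma adjusted p = 0.00717). *Lama2*, a laminin chain of muscle basement membrane, had values of 17.2, 18.2 and 22.7 in controls and 14.2, 10.2 and 6.35 in homozygotes (log2 fold change -0.94 ± 0.21, limma adjusted p = 0.0102). *Thbs2*, a thrombospondin, had values of 2.73, 2.19 and 3.29 in controls and 0.795, 1.1 and 1.22 in homozygotes (log2 fold change -1.07 ± 0.24, limma adjusted p = 0.00977). Homozygotes were lower in each. Matrix proteases and inhibitors had 39 tested members, of which 1 rose and 8 fell, or 23.1%, and the median log2 fold change was -0.12 (0 and 6, 0 and 6, 0 and 7). *Mmp15*, a membrane-bound metalloprotease, had values of 121, 138 and 137 in controls and 67.3, 68.97 and 56.5 in homozygotes (log2 fold change -1.03 ± 0.08, limma adjusted p = 4.96e-06). *Adamts19*, whose family cleaves proteoglycans and other matrix proteins, had values of 9.95, 12.2 and 12.1 in controls and 4.66, 2.79 and 3.65 in homozygotes (log2 fold change -1.52 ± 0.17, limma adjusted p = 0.000103). *Timp2*, an inhibitor of metalloproteases, had values of 67.1, 69.7 and 69.7 in controls and 45.98, 39.4 and 37.1 in homozygotes (log2 fold change -0.75 ± 0.08, limma adjusted p = 4.71e-05). Proteases and inhibitor thus fell side by side, in every homozygote library. Collagens and their processing had 45 tested members, of which 3 rose and 5 fell, or 17.8%, and the median log2 fold change was -0.16 (2 and 2, 2 and 2, 2 and 4), and among them *Lox*, which crosslinks collagen, rose with values of 9.49, 8.69 and 7.24 in controls and 16.5, 13.96 and 14.6 in homozygotes (log2 fold change 0.80 ± 0.17, limma adjusted p = 0.00739). The calls of *Lama2* and *Thbs2* ended without control library 3 (limma adjusted p = 0.0542 and 0.0558). *Tnc* and *Lama2* lost the call without the mean-variance trend (limma adjusted p = 0.0546 and 0.054).

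Cell adhesion lists are given beside the 15.2% of all genes called and the 8.03% that fell. Integrins and focal adhesion genes had 40 tested members, of which 0 rose and 6 fell, or 15%, and the median log2 fold change was -0.12 (0 and 4, 0 and 4, 1 and 5). The fibronectin receptor chain *Itga5* had values of 144, 153 and 166 in controls and 118, 105 and 94.6 in homozygotes (log2 fold change -0.54 ± 0.08, limma adjusted p = 0.00114). The common beta chain *Itgb1* had values of 729, 726 and 807 in controls and 612, 645 and 559.7 in homozygotes (log2 fold change -0.32 ± 0.07, limma adjusted p = 0.00638). Both lay below all controls, and *Itga1* changed by -0.54 (limma adjusted p = 0.00197). Adherens junction, desmosome and intercalated disc genes had 30 tested members, of which 1 rose and 7 fell, or 26.7%, and the median log2 fold change was -0.14 (1 and 4, 1 and 4, 1 and 5). *Popdc3*, a membrane protein of striated muscle, had values of 9.6, 9.71 and 10.01 in controls and 3.52, 5.16 and 4.82 in homozygotes (log2 fold change -1.05 ± 0.17, limma adjusted p = 0.00137). The desmosomal plakophilin *Pkp2* had values of 114, 115 and 119 in controls and 85.5, 94.9 and 92.4 in homozygotes (log2 fold change -0.35 ± 0.06, limma adjusted p = 0.0016). These, too, were lower in every homozygote library. *Bves*, of the same Popeye family as *Popdc3*, changed by -0.46 (limma adjusted p = 0.00341), and the one rise was T-cadherin, *Cdh13* (13.1, 16.8 and 17.5 in controls and 24.2, 30.4 and 22.1 in homozygotes; log2 fold change 0.68 ± 0.14, limma adjusted p = 0.00584).

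For DNA replication and mitosis, the shares that rose stood near the 7.19% of all genes. DNA replication had 52 tested members, of which 5 rose and 0 fell, or 9.62%, and the median log2 fold change was 0.09 (1 and 0, 1 and 0, 2 and 0). Mitosis had 51 tested members, of which 5 rose and 0 fell, or 9.8%, and the median log2 fold change was 0.08 (1 and 0, 2 and 0, 4 and 0). The median over all genes was 0.00. *Spc25*, a kinetochore subunit, had values of 65.8, 63.2 and 58.7 in controls and 76.6, 87.9 and 77.2 in homozygotes (log2 fold change 0.36 ± 0.07, limma adjusted p = 0.00522) and was higher in every homozygote library. Regulators of G1 had 33 tested members, of which 4 rose and 2 fell, or 18.2%, and the median log2 fold change was 0.09 (2 and 1, 2 and 1, 4 and 3). *Ccnd2*, cyclin D2, had values of 588, 611 and 631 in controls and 413, 480.1 and 455 in homozygotes (log2 fold change -0.44 ± 0.07, limma adjusted p = 0.00117). *E2f2* had values of 40.8, 35.02 and 37.2 in controls and 49.6, 54.2 and 56.6 in homozygotes (log2 fold change 0.50 ± 0.10, limma adjusted p = 0.00656). The cyclin was lower and the E2F factor higher in each homozygote library. Of 32 p53 targets, 2 rose and 3 fell, or 15.6% (1 and 1, 1 and 2, 2 and 3), with *Phlda3* at 0.56 and *Zmat3* at -0.59 (limma adjusted p = 0.00507 and 0.00803). Apoptosis regulators had 29 tested members, of which 1 rose and 4 fell, or 17.2%, and the median log2 fold change was -0.09 (0 and 3, 1 and 4, 2 and 4). The killer *Bak1* had values of 46.1, 52.9 and 49.3 in controls and 25.6, 26.5 and 26.6 in homozygotes (log2 fold change -0.90 ± 0.09, limma adjusted p = 2.2e-05). The protector *Bcl2* had values of 32.5, 33.9 and 31.6 in controls and 23.3, 24.3 and 20.6 in homozygotes (log2 fold change -0.52 ± 0.09, limma adjusted p = 0.00181), so members with opposite roles fell together. DNA repair had 49 tested members, of which 1 rose and 3 fell, or 8.16%, and the median log2 fold change was -0.05 (0 and 2, 1 and 2, 2 and 1), with the damage kinases *Atm* and *Atr* at -0.41 and -0.35 (limma adjusted p = 0.00663 and 0.0105). *Atm* and *Atr* had log2 fold changes of -0.26 and -0.22 with the length trend removed (limma adjusted p = 0.066 and 0.074).

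Called chromatin regulators mostly fell. The list of CTCF, cohesin and condensin, which counts *Ctcf* itself among its falls, had 26 tested members, of which 2 rose and 3 fell, or 19.2%, and the median log2 fold change was 0.03 (1 and 2, 1 and 2, 3 and 3). *Stag1*, a cohesin subunit, rose with values of 106, 103 and 112 in controls and 149, 159.5 and 154 in homozygotes (log2 fold change 0.52 ± 0.06, limma adjusted p = 5.89e-05). *Nipbl*, which loads cohesin, had values of 128, 112 and 127 in controls and 92.5, 100.1 and 89.1 in homozygotes (log2 fold change -0.38 ± 0.08, limma adjusted p = 0.0094). One lay above and the other below all controls. Chromatin remodellers had 45 tested members, of which 0 rose and 12 fell, or 26.7%, and the median log2 fold change was -0.14 (0 and 5, 0 and 7, 0 and 2). *Chd9*, a helicase, had values of 41.1, 42.3 and 46.3 in controls and 29.2, 33.9 and 26.6 in homozygotes (log2 fold change -0.53 ± 0.09, limma adjusted p = 0.00242). The SWI/SNF subunit *Smarcc2* had values of 126, 126 and 142 in controls and 88.2, 95.4 and 100.3 in homozygotes (log2 fold change -0.47 ± 0.07, limma adjusted p = 0.000544). The groups were apart for both, and *Chd7* changed by -0.38 (limma adjusted p = 0.00148). Histone deacetylases, acetyltransferases and related enzymes had 51 tested members, of which 1 rose and 12 fell, or 25.5%, and the median log2 fold change was -0.10 (1 and 4, 1 and 8, 2 and 2), and *Hdac9*, a class IIa enzyme of muscle, had values of 39.3, 36.6 and 37.9 in controls and 21.9, 25.98 and 22.6 in homozygotes (log2 fold change -0.68 ± 0.09, limma adjusted p = 0.000451). Polycomb and trithorax genes had 44 tested members, of which 2 rose and 5 fell, or 15.9%, and the median log2 fold change was -0.06 (2 and 4, 2 and 5, 1 and 1). *Pcgf5*, a polycomb ring finger protein, rose with values of 25.2, 25.5 and 23.8 in controls and 43.3, 48.5 and 44.98 in homozygotes (log2 fold change 0.86 ± 0.10, limma adjusted p = 8.54e-05), and the histone methyltransferases *Mll2* and *Mll1* changed by -0.51 and -0.45 (limma adjusted p = 0.00128 and 0.00194). With the length trend removed, the number of falls went from 12 to 2 in each of the remodeller and the acetylation lists. *Nipbl*, *Chd9*, *Chd7*, *Mll2* and *Mll1* had log2 fold changes of -0.25, -0.33, -0.17, -0.22 and -0.20 with the length trend removed (limma adjusted p = 0.0444, 0.0192, 0.0755, 0.0398 and 0.0733). *Nipbl* lost the call without the mean-variance trend (limma adjusted p = 0.0532).

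Lists of RNA processing were called in shares above and below the 15.2% of all genes. The core spliceosome had 59 tested members, of which 12 rose and 0 fell, or 20.3%, and the median log2 fold change was 0.09 (3 and 0, 2 and 0, 3 and 0). *Txnl4a*, a protein of the small nuclear ribonucleoproteins, had values of 25.9, 27.8 and 26.1 in controls and 40.3, 33.4 and 36.2 in homozygotes (log2 fold change 0.45 ± 0.10, limma adjusted p = 0.00954). The Sm protein *Snrpe* had values of 139.8, 137 and 126 in controls and 162, 165 and 174 in homozygotes (log2 fold change 0.32 ± 0.06, limma adjusted p = 0.00322). Both lay above all controls. Splicing regulators had 51 tested members, of which 0 rose and 6 fell, or 11.8%, and the median log2 fold change was -0.03. *Rbm24*, which acts in splicing in heart muscle, had values of 152, 164 and 151 in controls and 119, 134 and 116 in homozygotes (log2 fold change -0.34 ± 0.07, limma adjusted p = 0.00395). *Qk*, the RNA-binding protein quaking, had values of 421, 420.4 and 448 in controls and 323, 361 and 318 in homozygotes (log2 fold change -0.36 ± 0.07, limma adjusted p = 0.00269). Both lay below all controls, and *Celf1* changed by -0.26 (limma adjusted p = 0.00652). The difference between the lists as such was not tested. RNA polymerase II and Mediator had 60 tested members, of which 4 rose and 1 fell, or 8.33%, and the median log2 fold change was 0.06 (2 and 0, 3 and 0, 4 and 0), with *Polr2i* at 0.44 and *Med21* at 0.48 (limma adjusted p = 0.00758 and 0.00178). Ribosome biogenesis had 47 tested members, of which 4 rose and 0 fell, or 8.51%, and the median log2 fold change was 0.06 (2 and 0, 2 and 0, 3 and 0) and nuclear pore and transport had 46 tested members, of which 0 rose and 1 fell, or 2.17%, and the median log2 fold change was 0.01 (0 and 0, 0 and 1, 3 and 1). *Snrpe*, *Qk* and *Celf1* had log2 fold changes of 0.20, -0.21 and -0.14 with the length trend removed (limma adjusted p = 0.0271, 0.0219 and 0.0866).

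Several genes of protein turnover and folding rose in small steps. The proteasome had 45 tested members, of which 13 rose and 0 fell, or 28.9%, and the median log2 fold change was 0.13 (3 and 0, 5 and 0, 5 and 0). *Psmb4*, a beta subunit of the core particle, had values of 159.6, 171 and 153 in controls and 206, 193 and 201 in homozygotes (log2 fold change 0.31 ± 0.06, limma adjusted p = 0.0034). *Psma7*, an alpha subunit, had values of 160.3, 175 and 156 in controls and 203, 194 and 206 in homozygotes (log2 fold change 0.30 ± 0.06, limma adjusted p = 0.00499). Cytosolic chaperones had 48 tested members, of which 5 rose and 0 fell, or 10.4%, and the median log2 fold change was 0.08 (3 and 0, 2 and 0, 3 and 3), with the HSP70 cofactor *Bag1* at 112, 129 and 116 in controls and 145, 153 and 172 in homozygotes (log2 fold change 0.39 ± 0.07, limma adjusted p = 0.00382). Genes of endoplasmic reticulum stress and folding had 31 tested members, of which 5 rose and 1 fell, or 19.4%, and the median log2 fold change was 0.07 (4 and 0, 4 and 0, 5 and 2). *Atf4*, a transcription factor of the integrated stress response, had values of 191, 179 and 159.7 in controls and 236, 244 and 278 in homozygotes (log2 fold change 0.52 ± 0.08, limma adjusted p = 0.00118), and its known target *Ppp1r15a* changed by 0.50 (limma adjusted p = 0.00807). *Trib3*, another known target, had values of 13.2, 11.6 and 15.1 in controls and 23.3, 27.7 and 24.4 in homozygotes (log2 fold change 0.89 ± 0.16, limma adjusted p = 0.00313). *Creld2*, a chaperone of the reticulum, had values of 36.7, 40.4 and 42.03 in controls and 70.7, 56.6 and 57.9 in homozygotes (log2 fold change 0.62 ± 0.09, limma adjusted p = 0.000764). Homozygotes exceeded controls in every library for these. The secretory pathway had 47 tested members, of which 8 rose and 0 fell, or 17%, and the median log2 fold change was 0.09 (2 and 0, 5 and 0, 3 and 0), with *Dad1*, a subunit of the oligosaccharyltransferase, at 74.8, 82.8 and 71.6 in controls and 103, 98.2 and 94.2 in homozygotes (log2 fold change 0.37 ± 0.07, limma adjusted p = 0.00308). *Psmb4* had a log2 fold change of 0.19 with the length trend removed (limma adjusted p = 0.0235).

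Lysosome and autophagy genes had 60 tested members, of which 8 rose and 2 fell, or 16.7%, and the median log2 fold change was 0.03 (5 and 1, 6 and 1, 6 and 1). Cathepsin D was the largest rise, and cathepsin B (*Ctsb*) had values of 351, 297 and 304 in controls and 408, 430.1 and 414 in homozygotes (log2 fold change 0.40 ± 0.08, limma adjusted p = 0.00586). *Gaa*, the lysosomal glucosidase that degrades glycogen, fell with values of 82.6, 75.7 and 83.4 in controls and 51.2, 46.1 and 36.2 in homozygotes (log2 fold change -0.86 ± 0.11, limma adjusted p = 0.000291). Oxidative stress defence had 40 tested members, of which 13 rose and 1 fell, or 35%, and the median log2 fold change was 0.18 (11 and 0, 10 and 1, 10 and 1). *Mt1*, a metallothionein, had values of 135, 75.2 and 105 in controls and 193, 198 and 219 in homozygotes (log2 fold change 0.99 ± 0.17, limma adjusted p = 0.00188). The related *Mt2* had values of 127, 67.96 and 96.4 in controls and 165, 174 and 179 in homozygotes (log2 fold change 0.87 ± 0.17, limma adjusted p = 0.00477). Both rose above all controls. *Gpx1* and *Prdx2*, peroxidases that red cells also carry in large amounts, rose by 0.54 and 0.45 (limma adjusted p = 0.00879 and 0.00917), and the mitochondrial peroxidase *Prdx3* had values of 157, 154 and 138 in controls and 187, 207 and 217 in homozygotes (log2 fold change 0.44 ± 0.08, limma adjusted p = 0.00222). *Gclm*, a subunit of the enzyme that starts glutathione synthesis, changed by 0.55 (limma adjusted p = 0.00486). *Gpx1* lost the call with the length trend removed or without the mean-variance trend (limma adjusted p of up to 0.0591). *Prdx2* lost the call without the mean-variance trend (limma adjusted p = 0.0566).

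Carbohydrate metabolism changed gene by gene. Glycolysis and glucose uptake had 41 tested members, of which 6 rose and 12 fell, or 43.9%, and the median log2 fold change was -0.07. *Pgam2*, the muscle phosphoglycerate mutase, had values of 130.2, 149.9 and 138 in controls and 293, 307 and 309.8 in homozygotes (log2 fold change 1.12 ± 0.07, limma adjusted p = 6.7e-07). *Pklr*, the pyruvate kinase of liver and red cells, had values of 128, 106 and 102 in controls and 182, 199 and 218 in homozygotes (log2 fold change 0.84 ± 0.14, limma adjusted p = 0.00191). *Pfkp*, a phosphofructokinase, fell with values of 141, 146 and 159 in controls and 94.3, 108 and 80.4 in homozygotes (log2 fold change -0.66 ± 0.10, limma adjusted p = 0.000673). *Eno2*, an enolase, had values of 4.83, 3.71 and 4.31 in controls and 2.61, 2.96 and 2.03 in homozygotes (log2 fold change -0.66 ± 0.21, limma adjusted p = 0.0445). Rises and falls thus both occurred along the pathway, each without overlap. Of 25 genes induced by hypoxia, 1 rose and 3 fell, or 16% (1 and 2, 1 and 3, 2 and 4). The rise was *Ndrg1*, with values of 4.83, 5.34 and 6.8 in controls and 18.7, 16.7 and 15.4 in homozygotes (log2 fold change 1.51 ± 0.18, limma adjusted p = 0.00014). *Hif1a*, a subunit of the factor itself, had values of 366, 366 and 384 in controls and 295, 329 and 290.3 in homozygotes (log2 fold change -0.29 ± 0.06, limma adjusted p = 0.00843). Energy buffering had 22 tested members, of which 3 rose and 5 fell, or 36.4%, and the median log2 fold change was -0.01 (1 and 5, 2 and 5, 3 and 4). The brain-type creatine kinase *Ckb* had values of 140.5, 157 and 135 in controls and 92.8, 84.9 and 88.03 in homozygotes (log2 fold change -0.70 ± 0.07, limma adjusted p = 2.02e-05). The creatine transporter *Slc6a8* had values of 40.2, 42.04 and 44.5 in controls and 31.7, 26.3 and 24.7 in homozygotes (log2 fold change -0.61 ± 0.10, limma adjusted p = 0.0012). Enzyme and transporter were lower in every homozygote library. The call of *Eno2* ended without any one of control libraries 1, 2 and 3 or any one of homozygote libraries 1 and 3 (limma adjusted p of up to 0.155). *Eno2* lost the call with only homozygotes and controls in the fit or with the length trend removed (limma adjusted p of up to 0.0679). *Hif1a* lost the call without the mean-variance trend (limma adjusted p = 0.0506).

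Lipid synthesis and storage had 32 tested members, of which 2 rose and 11 fell, or 40.6%, and the median log2 fold change was -0.04 (1 and 5, 1 and 5, 3 and 5). *Lpl*, lipoprotein lipase, had values of 128, 136 and 135 in controls and 84.4, 81.8 and 68.8 in homozygotes (log2 fold change -0.77 ± 0.09, limma adjusted p = 8.11e-05). *Scd2*, a desaturase, had values of 488, 478 and 516 in controls and 377, 351 and 323 in homozygotes (log2 fold change -0.50 ± 0.06, limma adjusted p = 0.000285). *Cd36*, a fatty acid transporter, went the other way with values of 33.1, 34.5 and 40.3 in controls and 49.4, 55.4 and 48.5 in homozygotes (log2 fold change 0.50 ± 0.10, limma adjusted p = 0.00405). Fatty acid oxidation had 25 tested members, of which 1 rose and 2 fell, or 12%, and the median log2 fold change was -0.04 (0 and 1, 1 and 2, 2 and 4), with *Cpt1b*, the muscle form of the carnitine transferase, at -0.43 (limma adjusted p = 0.00178), 81.4% of whose exonic bases overlap another gene on the same strand. Cholesterol synthesis had 26 tested members, of which 1 rose and 3 fell, or 15.4%, and the median log2 fold change was -0.12 (1 and 0, 1 and 0, 1 and 2), and the epoxidase *Sqle* rose with values of 71.4, 74.3 and 74.3 in controls and 97.3, 120.1 and 100.4 in homozygotes (log2 fold change 0.52 ± 0.08, limma adjusted p = 0.00128). Amino acid synthesis and one-carbon metabolism had 33 tested members, of which 5 rose and 3 fell, or 24.2%, and the median log2 fold change was 0.14 (3 and 1, 2 and 1, 3 and 2). *Phgdh*, the first step of serine synthesis, had values of 121, 93.99 and 104 in controls and 151, 154 and 163 in homozygotes (log2 fold change 0.56 ± 0.08, limma adjusted p = 0.000572). *Got2*, the mitochondrial aspartate aminotransferase, fell with values of 271, 286 and 297 in controls and 198, 199.8 and 196 in homozygotes (log2 fold change -0.52 ± 0.05, limma adjusted p = 5.14e-05). Nucleotide synthesis had 38 tested members, of which 5 rose and 0 fell, or 13.2%, and the median log2 fold change was 0.07 (1 and 0, 2 and 0, 4 and 0).

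In all, 67 lists by function were used, with 2091 distinct genes tested, of which 204 rose and 264 fell, and 1665 called genes belonged to none of them. The share of called genes was above the 15.2% of all genes in 49 lists. Lists share members, such as *Ryr2*, *Hey2*, *Slit2*, *Bmp2* and *Dkk3*, so the counts of different lists are not independent. The median was at least 0.1 in 8 lists and -0.1 or lower in 27. None of these 35 medians changed sign with quantile normalization or with the length trend removed. Beside those described, smooth muscle genes had 15 tested members, of which 1 rose and 4 fell, or 33.3%, and the median log2 fold change was -0.16 (1 and 3, 0 and 2, 0 and 5), and their summed value was 3602 to 3983 in controls and 3341 to 3516 in homozygotes. Imprinted genes had 43 tested members, of which 3 rose and 6 fell, or 20.9%, and the median log2 fold change was -0.06. *Zim1*, a zinc finger gene, had values of 59.9, 54.6 and 75.7 in controls and 37.8, 42.4 and 36.7 in homozygotes (log2 fold change -0.68 ± 0.11, limma adjusted p = 0.00181). *Snrpn*, which encodes a spliceosomal protein, had values of 53.7, 53.3 and 52.99 in controls and 73.7, 66.4 and 73.2 in homozygotes (log2 fold change 0.41 ± 0.07, limma adjusted p = 0.00174). Of interferon-stimulated genes 3 of 22 rose and 0 fell, or 13.6% (1 and 0, 1 and 0, 2 and 1), of immediate early and stress genes 2 of 21 rose and 1 fell, or 14.3% (0 and 0, 0 and 0, 2 and 1), and of the 4 Hox genes tested none was called. The skeletal muscle list had 4 genes tested, of which *Mylpf* rose, or 25%. Among families set by symbol, zinc finger proteins named Zfp had few calls, with 332 tested members, of which 4 rose and 19 fell, or 6.93%, and the median log2 fold change was -0.07 (0 and 3, 1 and 10, 3 and 7), and solute carriers had 207 tested members, of which 13 rose and 16 fell, or 14%, and the median log2 fold change was -0.07 (3 and 7, 6 and 8, 15 and 14). S100 proteins had 3 rises and 2 falls among 10, or 50% (0 and 1, 0 and 2, 0 and 2), and LIM domain proteins had 4 and 5 among 23, or 39.1%. For comparison, cytosolic ribosomal proteins had 63 rises and no fall among 77, or 81.8% (46 and 0, 52 and 0, 35 and 0).

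**Figure D5:**
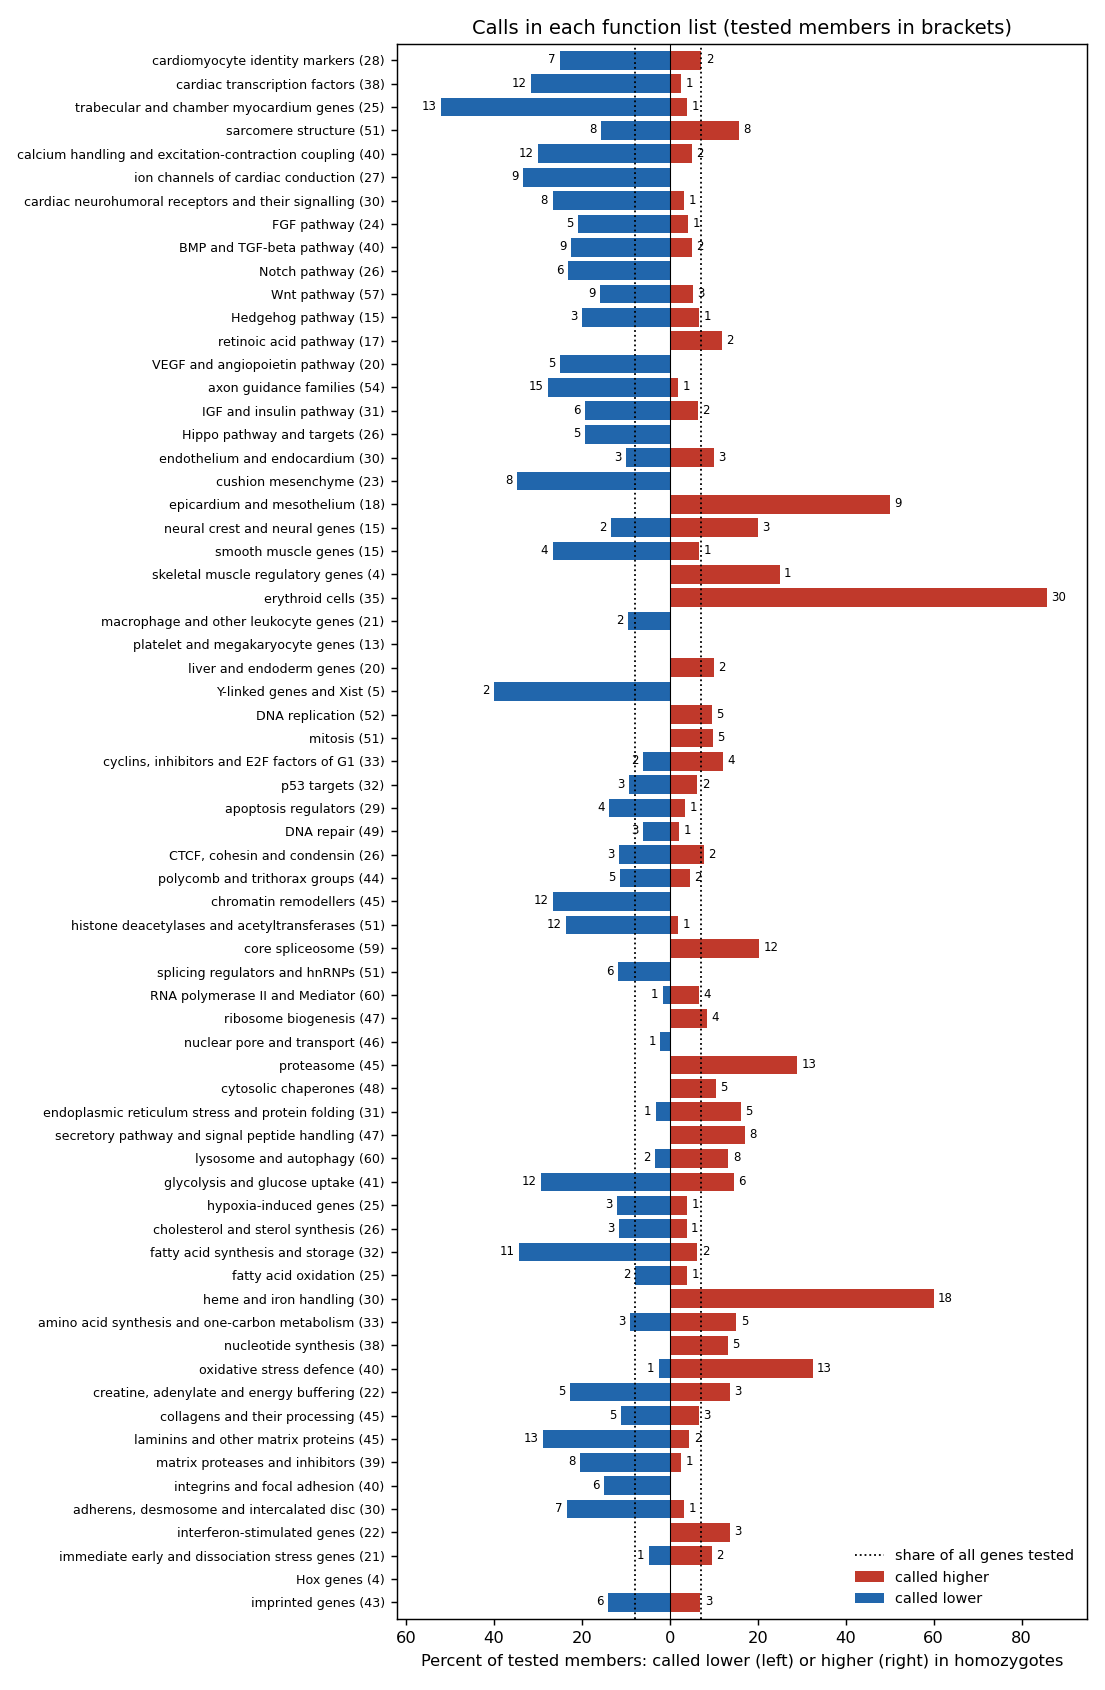
Percent of tested members called lower (bars to the left) and higher (bars to the right) in homozygotes for each of the 67 function lists, with the number of calls beside each bar, the members tested in brackets and dotted lines at the shares over all genes (8.03% lower and 7.19% higher). The longest bars to the right are those of erythroid, heme and epicardial genes, and the longest to the left that of trabecular and chamber myocardium genes.

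Several of the 24 largest changes among genes annotated as protein-coding or lincRNA (12 in each direction, groups apart, mean of 10 or more in the higher group, no ribosomal proteins) were of genes in no list. The largest fall was *Gsg1l* (chr7:133021933-133225925, NCBIM37), which encodes an auxiliary subunit of glutamate receptors, with values of 16.1, 14.3 and 18.9 in controls and 3.07, 2.96 and 2.21 in homozygotes (log2 fold change -2.39 ± 0.17, limma adjusted p = 2.02e-06). *Epdr1*, a secreted lipid-binding protein, had values of 15.4, 16.9 and 17.03 in controls and 6.47, 3.64 and 5.54 in homozygotes (log2 fold change -1.60 ± 0.17, limma adjusted p = 6.77e-05). *Fgl2*, a fibrinogen-like protein, had values of 36.1, 38.7 and 42.5 in controls and 14.9, 14.1 and 10.04 in homozygotes (log2 fold change -1.57 ± 0.14, limma adjusted p = 1.65e-05). These were lower in every homozygote library, which the rule for the 24 genes required. *Tmem44* had values of 24.5, 27.7 and 29.6 in controls and 11.9, 7.7 and 7.52 in homozygotes (log2 fold change -1.57 ± 0.17, limma adjusted p = 6.24e-05). *Igfbpl1* had values of 44.9, 53.2 and 55.3 in controls and 18.96, 21.4 and 13.7 in homozygotes (log2 fold change -1.5 ± 0.16, limma adjusted p = 5.14e-05). *Lgi2* had values of 32.1, 35.02 and 34.4 in controls and 12.6, 15.99 and 9.14 in homozygotes (log2 fold change -1.43 ± 0.15, limma adjusted p = 6.24e-05).

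Among the largest rises, *Guca1b*, a calcium sensor of photoreceptors (chr17:47522342-47529916, NCBIM37), had values of 3.2, 2.08 and 1.39 in controls and 9.88, 10.9 and 9.95 in homozygotes (log2 fold change 2.03 ± 0.25, limma adjusted p = 0.000215). Its neighbor *Guca1a* had values of 0.524, 0.559 and 0.95 in controls and 2.38, 1.95 and 4.1 in homozygotes (log2 fold change 1.46 ± 0.36, limma adjusted p = 0.0167). *Slc7a7*, an amino acid transporter, had values of 8.79, 8.08 and 7.09 in controls and 27.6, 29.5 and 23.4 in homozygotes (log2 fold change 1.69 ± 0.15, limma adjusted p = 1.19e-05). Homozygotes were above controls in each, which the rule for the largest changes required of *Guca1b* and *Slc7a7*. *Nrn1*, neuritin, had values of 3.55, 3.2 and 2.85 in controls and 9.88, 10.8 and 12.6 in homozygotes (log2 fold change 1.64 ± 0.23, limma adjusted p = 0.00061). *Serpinb9*, a granzyme inhibitor (chr13:33095119-33109826, NCBIM37), had values of 9.72, 9.81 and 12.2 in controls and 31.7, 36.3 and 31.8 in homozygotes (log2 fold change 1.61 ± 0.15, limma adjusted p = 1.91e-05) close to the fall of *Serpinb6b* given above. *Mnd1*, a meiotic recombination protein, had values of 6.58, 8.49 and 5.92 in controls and 20.8, 19.9 and 20.6 in homozygotes (log2 fold change 1.5 ± 0.14, limma adjusted p = 2.3e-05). The call of *Guca1a* ended without control library 2 or homozygote library 3 (limma adjusted p of up to 0.0818). *Guca1a* had a log2 fold change of 2.23 with edgeR on whole reads (edgeR adjusted p = 0.00959). *Guca1a* had a log2 fold change of 2.22 with voom on whole reads (limma adjusted p = 0.00999).

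In heterozygotes, which keep 1 functional *Ctcf* allele, the libraries overlapped only the controls for 7 of these 12 falls and 7 of these 12 rises. They overlapped only the homozygotes for 2 rises, *Dynlt1b* and *Tmem181b-ps*, and lay between or outside both groups for 4 falls and 3 rises, and for *Adnp* they overlapped both. Pseudogenes with larger rises are described with the near-identical copies. The neighbors of the 24 genes were counted within 100000 bases. Of 71 neighbors tested, some counted more than once, 14 rose and 7 fell, or 29.6% against 15.2% of all genes. Some of these neighbors, such as *Dynlt1b* and *Tmem181b-ps*, are themselves among the 24 genes, which raises the share, and this is a description of genes chosen after their values were seen. *S100a1* fell together with its neighbor *S100a13* (log2 fold change -0.68 ± 0.19, limma adjusted p = 0.029), while *S100a6* nearby rose. *Scube2* fell beside *Dennd5a* (log2 fold change -0.16 ± 0.05, limma adjusted p = 0.046), and next to the rise of *Ndrg1* the secreted protein gene *Wisp1* fell (log2 fold change -1.27 ± 0.09, limma adjusted p = 2.95e-06). Along the autosomes and X, 13.6 to 18.8% of the tested genes were called (2 of 4 on Y and 3 of 15 on the mitochondrial chromosome), and the longest run of adjacent tested genes called in 1 direction held 3 genes. The call of *S100a13* ended without any one of control libraries 2 and 3 or homozygote library 1 (limma adjusted p of up to 0.123). The call of *Dennd5a* ended without any one of control libraries 1, 2 and 3 or any one of homozygote libraries 1, 2 and 3 (limma adjusted p of up to 0.136). *Dennd5a* had a log2 fold change of -0.04 with the length trend removed (limma adjusted p = 0.728). *S100a13* lost the call without the mean-variance trend (limma adjusted p = 0.076). *Dennd5a* lost the call with only homozygotes and controls in the fit, with quantile normalization or without the mean-variance trend (limma adjusted p of up to 0.104).

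Some of the largest changes were of genes with a near-identical copy elsewhere, so that reads could have been placed on either and the values are uncertain. A search of the 357 named genes found a coding transcript of another gene with at least 95% identity over at least 50% of the length for 15. *Dynlt1b*, 98.9% identical to *Dynlt1c*, had values of 7.51, 13.1 and 7.67 in controls and 82.3, 83.02 and 78.3 in homozygotes, and of 83.2, 70.8 and 73.2 in heterozygotes. *Tmem181b-ps*, 99.2% identical to *Tmem181a*, had values of 4.83, 4.42 and 6.07 in controls and 22.6, 21.6 and 15.7 in homozygotes, and of 19.8, 17.6 and 17.6 in heterozygotes. In both the heterozygotes overlapped the homozygotes. *2810453I06Rik* was carried by 2 overlapping rows that moved in opposite directions, 3.76 and -1.75, and both lost their call without control library 2 (limma adjusted p = 0.0866 and 0.119) and without several other libraries. The first row had a log2 fold change of 1.93 with edgeR on whole reads (edgeR adjusted p = 0.132) and of 6.36 with voom (limma adjusted p = 0.0035), and without the mean-variance trend both rows lost the call (limma adjusted p = 0.1 and 0.109), as the second did with voom (limma adjusted p = 0.0993). Some processed pseudogenes had no read in any control. At a floor of 3 reads over the group, *Rps2-ps10* was at least 1300-fold higher in homozygotes, *Rps2-ps6* at least 125-fold, *Gm13443* (99.5% identical to *Glo1*) at least 124-fold and *Gm9825* (97.5% identical to *Rnps1*) at least 98.3-fold. *Gm9846* went the other way, with 0 reads in homozygotes against 110 in controls, and was at least 32.8-fold lower. The values in homozygotes were 151, 153 and 173 for *Rps2-ps10* and 14.2, 16.3 and 15.8 for *Gm13443*. In heterozygotes *Rps2-ps10* had 114, 136 and 91.9 and *Gm13443* had 15.9, 20.1 and 20.4, so that both were high with 1 intact *Ctcf* allele too. *Rps2-ps6* had 0.049, 0.0631 and 0.115 in heterozygotes, which are the values of 0 reads. The hemoglobin gene *Hba-a1* has a near-identical partner in *Hba-a2* over 77% of its length, and *Adnp* overlaps *Dpm1*, so the fall of *Adnp* (log2 fold change -1.44 ± 0.34, limma adjusted p = 0.0121) is uncertain as well. The call of *Adnp* ended without control library 3 (limma adjusted p = 0.0502). *Adnp* lost the call without the mean-variance trend (limma adjusted p = 0.0716).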

How the data were processed

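PolyA RNA from pools of 6 hearts was made into libraries with a TruSeq kit, which keeps no strand. The submitters' processing notes name CASAVA 1.8, cutadapt 1.6.1, RSEM 1.20, Bowtie2 and limma on NCBIM37. The authors deposited normalized signal values, whole reads plus 0.5 scaled by an effective library size, and 100% of the values gave back whole reads (tolerance 0.01).

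Values were analyzed as log2(value + 0.5) with limma 3.58.1 in R 4.3.3, all 9 libraries in one fit with a mean-variance trend, and with edgeR 4.0.16 on recovered reads as an alternative. P-values measure the spread between pools. The methods were tested on simulated data. Sequence copies were searched with BLAST+ 2.17.0, and tables were made with Python 3.11.15. Exonic lengths and coordinates were taken from GENCODE M1 (13987 genes placed) and promoters from RefSeq. For the 57 symbols carried by more than 1 row, lists used the row with the higher control mean, and 19 symbols were matched through other names.

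Named genes were *Ctcf*, the 12 largest falls and rises without overlap and with a mean of at least 10 (protein-coding or lincRNA by annotation, no ribosomal proteins), up to 6 called members of each list by size, the 4 most abundant called genes in each direction, defining markers, and genes that switched between at least 10 and under 2. Neighbors, promoter genes and a few others were chosen after their values were seen. The members and lists were chosen with earlier results of these data known. Some genes that the rule names are not reported here.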

Additional observations from a re-analysis of the deposited data

How the results depend on the processing

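Against 2133 calls (1008 rises and 1125 falls), the total went to 1196 (584 and 612) without the mean-variance trend and to 858 (415 and 443) at an adjusted p under 0.01. With the trend of the values with gene length removed, falls went to 743 and rises to 770, a total of 1513. Leaving out each library in turn gave 1049 to 1871 calls in all, 522 to 890 rises and 527 to 1005 falls, lowest without control library 3 and next lowest without homozygote library 3. Fewer libraries entered these fits, and for the other alternatives the cause was not tested. Pseudocounts of 0.25 and 1, a mean of at least 5, quantile normalization, a fit of only the groups compared, voom and edgeR gave 1938 to 2335 calls, within 1.5-fold of the original. Of the 357 named genes, 337 were called, none changed direction in any of the 16 alternatives, and 173 kept the call in all of them, while 140 lost it without at least 1 library. Of 2133 called genes, 346 rises and 368 falls kept the call throughout, and 9 changed direction in at least 1 alternative.

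The numbers of the columns pair nothing by the labels, and deviations of libraries with the same number were not correlated (r = -0.02, 0.01 and -0.04), with 0 of 3 numbers best matched to themselves. A fit with the number as a replicate block called 1756 genes, 811 rises and 945 falls. Among genes described it ended the calls of *Nppa*, *Krt18*, *Aldh1a3*, *Eno2*, *Dennd5a* and *Myl4* (limma adjusted p = 0.0708, 0.0585, 0.0615, 0.0734, 0.0951 and 0.081). Depth limits low genes most, since 1 read was worth up to 0.231 units.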
